A study of Mus musculus with 4 samples.

Results

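Bidirectional promoters of coding gene pairs are the short stretches of DNA from which a pair of protein-coding genes starts in opposite directions. They were taken from GENCODE vM21 (GRCm38) as intervals between the 5′ ends of 2 divergent protein-coding genes on opposite strands of chromosomes 1 to 19, with the 5′ ends at most 1000 bp apart. This gave 734 pairs of the 20093 protein-coding promoters compared, the rest being 19359 genes outside such pairs. The pairs hold 1448 genes, which is 6.96% of the 20807 protein-coding genes on these chromosomes, and 40 pairs share a gene with another pair. The longest intervals were *Btf3l4/Txndc12* (987 bp), *Asphd1/Sez6l2* (981 bp) and *Zfyve26/Rad51b* (978 bp), and the closest divergent pairs left out were *Gpr108/Trip10* (1009 bp) and *Sgsm2/Tsr1* (1011 bp).

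Open chromatin at these promoters was measured by ATAC-seq, in which the transposase Tn5 inserts adapters into accessible DNA, in aortic nuclei at P60 (60 days). Control (Col3a1+/+) mice were compared with VEDS (Col3a1G938D/+) mice, which model vascular Ehlers-Danlos syndrome through a heterozygous glycine substitution in type III collagen carried in every cell. Each sex and genotype had 1 library, made from 2 pooled mice, so that there is no replicate within a sex and genotype. The nuclei were processed with a single-cell kit and analyzed in aggregate, so that a lower share of a cell type and a less open region within it cannot be told apart.

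In a bidirectional promoter, 1 nucleosome-depleted region can serve transcription in both directions, and the pair of start sites often shares a CpG island. Such promoters are known to be common among housekeeping genes, including those of DNA repair, mitochondria and replication-dependent histones. They usually lack a TATA box, and CCAAT boxes, GC boxes, ETS and NRF1 sites are known elements of housekeeping promoters.

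Most of the pairs were close together. The interval between the gene starts ranged from 1 to 987 bp with a median of 128 bp (quartiles 66.25 and 240), and 602 of 734 pairs (82.0%) were within 300 bp. *Slc7a6os/Prmt7* and *Bag4/Lsm1* started on adjacent bases (1 bp), followed by *Dhrs1/Nop9* (3 bp). A predicted or clone-derived gene name was present in 74 pairs. Of the 1448 genes, 1158 matched a RefSeq promoter entry by symbol.

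The bases strictly between the annotated gene starts are shown for 10 pairs, read from the GRCm38 reference (NCBI RefSeq assembly), plus strand, 5′ to 3′, with the minus-strand gene on the left. Capitals mark matches on either strand to 9 short motifs whose letters are given with their shares further on. *Hjurp/Trpm8* had the strongest peak of all pairs in both longer peak lists. *Xab2/Pet100* and *Exosc1/Zdhhc16* were among the 5 strongest in the control female and VEDS male lists, respectively. *Ccdc151/Prkcsh*, *Styxl1/Mdh2* and *Cct5/Fam173b* had a peak in all 4 libraries. *Col4a4/Col4a3* encodes basement membrane collagens, *Hist1h2ac/Hist1h2bc* is a histone pair, *Ndufa5/Asb15* had a peak in the VEDS male list alone and *Nmur1/Tex44* had no peak.
Hjurp/Trpm8, chr1:88277634-88277660: ggggagggacgagagggagggtccgcc
Xab2/Pet100, chr8:3621317-3621547: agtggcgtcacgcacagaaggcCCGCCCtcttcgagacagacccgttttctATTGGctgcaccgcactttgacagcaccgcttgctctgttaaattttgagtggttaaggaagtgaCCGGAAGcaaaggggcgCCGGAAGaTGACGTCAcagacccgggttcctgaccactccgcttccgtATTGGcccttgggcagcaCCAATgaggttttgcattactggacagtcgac
Exosc1/Zdhhc16, chr19:41933424-41933479: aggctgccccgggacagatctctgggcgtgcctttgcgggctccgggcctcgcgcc
Ccdc151/Prkcsh, chr9:22002635-22002805: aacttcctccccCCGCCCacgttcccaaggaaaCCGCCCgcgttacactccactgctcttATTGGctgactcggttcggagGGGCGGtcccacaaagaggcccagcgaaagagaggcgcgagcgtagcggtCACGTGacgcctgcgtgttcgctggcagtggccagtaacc
Styxl1/Mdh2, chr5:135778386-135778479: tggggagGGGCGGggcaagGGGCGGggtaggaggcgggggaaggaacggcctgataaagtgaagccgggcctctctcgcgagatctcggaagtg
Cct5/Fam173b, chr15:31601805-31601851: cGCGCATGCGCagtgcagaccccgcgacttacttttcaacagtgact
Col4a4/Col4a3, chr1:82586850-82586920: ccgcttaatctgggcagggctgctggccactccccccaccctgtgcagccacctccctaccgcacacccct
Hist1h2ac/Hist1h2bc, chr13:23683949-23684198: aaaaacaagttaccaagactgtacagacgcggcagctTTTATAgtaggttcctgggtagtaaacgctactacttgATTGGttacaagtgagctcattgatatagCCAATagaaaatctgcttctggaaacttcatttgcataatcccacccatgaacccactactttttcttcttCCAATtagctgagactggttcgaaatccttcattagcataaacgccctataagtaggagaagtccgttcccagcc
Ndufa5/Asb15, chr6:24528014-24528143: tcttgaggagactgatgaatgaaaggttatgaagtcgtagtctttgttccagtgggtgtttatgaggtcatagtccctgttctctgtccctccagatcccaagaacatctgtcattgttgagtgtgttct
Nmur1/Tex44, chr1:86426229-86426328: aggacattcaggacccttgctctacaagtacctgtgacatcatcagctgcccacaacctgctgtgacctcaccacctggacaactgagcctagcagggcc

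The 4 peak lists differed widely in length, with 21176 peaks for control females, 41444 for VEDS males, 1236 for control males and 504 for VEDS females. The lowest −log10 q was 1.303 to 1.32 in each, next to a q of 0.05. The number of fragments at a summit, recovered from the fold enrichment and p-value of 99.3% to 99.9% of peaks, had a median of 14, 22, 7 and 6 fragments in the same order. The total number of fragments in a library was not used, and a promoter without a peak was not taken as closed. All 5 smooth muscle marker genes (*Acta2*, *Tagln*, *Myh11*, *Cnn1* and *Myocd*) had a peak within 1000 bp of the start in both longer lists. Of 4 endothelial markers 0 had one in the control female list and 2 (*Tie1* and *Kdr*) in the VEDS male list, of 4 fibroblast markers only *Col1a1* had one in either, and of 3 immune markers 0 did. In the control male and VEDS female lists 0 of these 16 markers had a peak.

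Most bidirectional pairs had a peak in the longer lists. A peak overlapped the interval with 200 bp on each side at 632 of 734 pairs (86.1%, 95% Wilson interval 83.4 to 88.4) in the control female library, where 36.8% of all promoters had one. For VEDS males it was 686 of 734 pairs (93.5%, 91.4 to 95.03), where 46.6% of all promoters had one. Other protein-coding promoters, in windows of the same median length of 529 bp placed around 1 gene start, had a peak in 34.9% (34.2 to 35.6) and 44.8% (44.1 to 45.5), respectively. The pairs were thus higher by 51.2 percentage points (95% Newcombe interval 48.4 to 53.6) in the control female library and 48.6 points (46.5 to 50.3) in the VEDS male. These intervals cover counting error over regions only, since regions of 1 library are not replicates, and a window at a pair holds 2 gene starts where another window holds 1. Counted gene by gene within 1000 bp centred on each start, 1236 of the 1448 genes in pairs (85.4%) against 36.9% of other genes had a peak in the control female library, and 1346 (93.0%) against 47.1% in the VEDS male. This count does not remove the difference in gene starts. The starts of 666 of the 734 pairs lie within 500 bp, so that most of these windows also hold the partner's start. The same peak can also count for both genes of a pair.

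**Figure D1:**
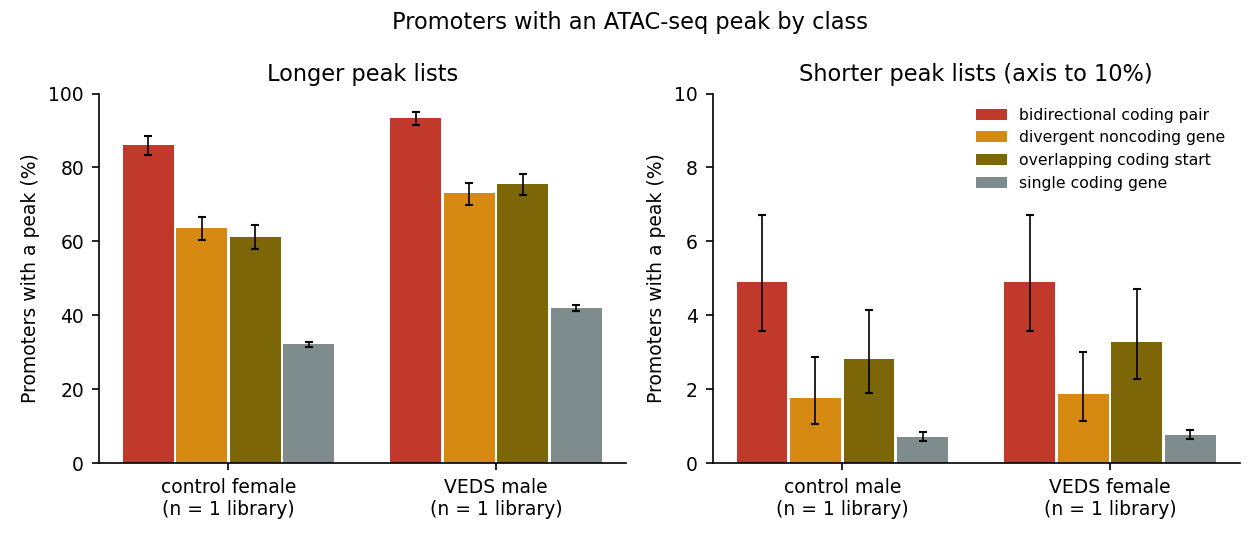
Share of promoters with a peak (%, y axis) in each library, for bidirectional coding pairs, coding genes with a divergent noncoding gene, coding genes whose start overlaps that of another coding gene, and single coding genes; error bars are 95% Wilson intervals, the right panel ends at 10%, and each bar comes from 1 library. In the left panel the pairs stand at 86.1% and 93.5% and the single genes at 32.2% and 42.0%.

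The excess of the pairs was smaller against promoters that are themselves divergent. Of 856 coding genes with a noncoding gene starting divergently within 1000 bp, a peak was found at 63.6% (60.3 to 66.7) in control females and 73.0% (69.9 to 75.9) in VEDS males. The coding pairs exceeded them by 22.6 points (18.4 to 26.6) and 20.4 points (16.9 to 23.9). Of 853 coding genes whose 5′ end overlaps that of a head-to-head coding gene, 61.3% and 75.5% had a peak, so that the coding pairs were higher by 24.8 points (20.6 to 28.8) and 18.0 points (14.5 to 21.3). The 17650 single genes had the lowest shares, at 32.2% and 42.0%.

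In the shorter lists few promoters of any kind had a peak. In the control male library 36 of 734 pairs (4.90%, 3.56 to 6.72) had one, against 0.99% of all promoters and 0.842% of the other promoters, a difference of 4.06 points (2.71 to 5.88). In the VEDS female library it was also 36 pairs (4.90%), against 1.07% of all promoters and 0.919% of the other promoters, a difference of 3.99 points (2.64 to 5.80). The difference from promoters with overlapping coding starts did not exceed counting error in the VEDS female library (1.62 points, −0.33 to 3.69). The pairs thus stood above the other promoters in each of the 4 libraries.

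CpG content moved with these shares. The ratio of observed to expected CpG dinucleotides in 300 bp had a median of 0.852 at pairs and 0.522 at other promoters, and GC content had medians of 62.5% and 56%. Coding genes with a divergent noncoding gene or an overlapping coding start were closer to the pairs. Their median CpG ratios were 0.820 and 0.781 and their median GC contents 63.3% and 61%, respectively. Within every bin of the CpG ratio the pairs had a peak more often than other promoters. Below 0.25, 5 of 25 pairs (20%) against 2.26% of other promoters had a peak in the control female library, and from 0.25 to 0.5 it was 28 of 41 pairs (68.3%) against 13.5%, a difference of 54.8 points (39.5 to 67.0). At a ratio of 1 or more it was 155 of 172 pairs (90.1%) against 72.7%, a difference of 17.4 points (11.6 to 21.7). The same bins of the VEDS male library differed by 14.8 points (3.69 to 34.0), 56.9 points (42.3 to 66.3) and 10.3 points (6.41 to 12.6). With the other promoters weighted to the CpG bins of the pairs, the difference was 26.0 points (23.2 to 28.5) in the control female and 20.1 points (17.9 to 21.8) in the VEDS male library, so that it was smaller but remained above 0.

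**Figure D2:**
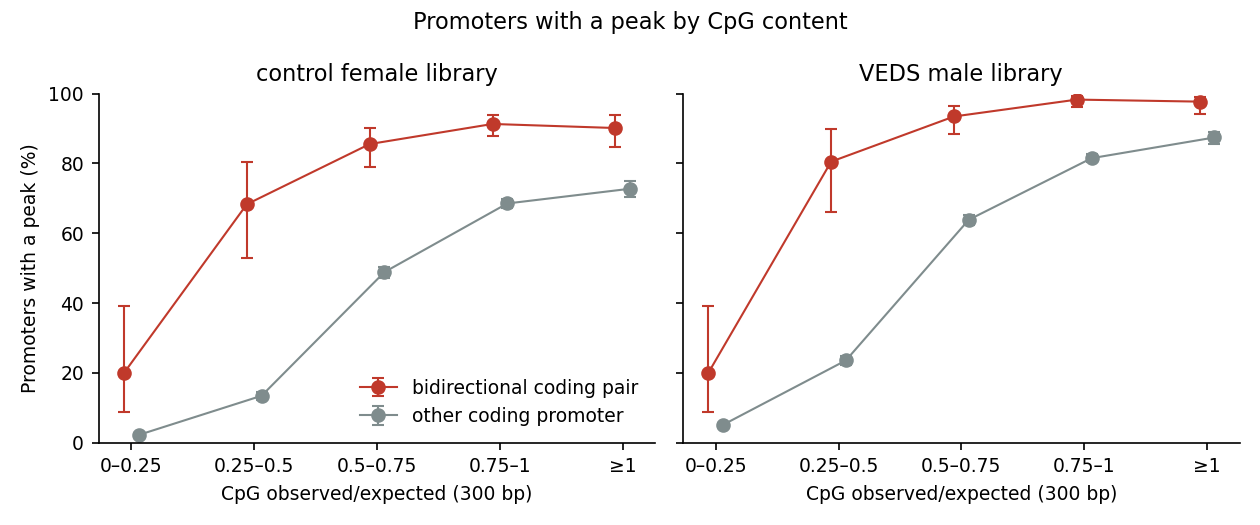
Share of promoters with a peak (%, y axis) by the ratio of observed to expected CpG in 300 bp (x axis), for bidirectional coding pairs and other coding promoters in the control female (left) and VEDS male (right) libraries, with 95% Wilson intervals. The other promoters rise through all 5 bins and the pairs through the first 4, and the pairs lie above the other promoters in each of the 5 bins, by 54.8 and 56.9 points in the second.

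The pairs accessible in the VEDS male library largely included those of the control female. A peak was present in both at 632 pairs, in the VEDS male alone at 54 (7.36%), in the control female alone at 0 (which allows a share of up to 0.409% of pairs, the share of 3 counts) and in neither at 48. Of the other promoters, 34.6% had one in both, 10.2% in the VEDS male alone, 0.263% in the control female alone and 54.9% in neither. Of the other promoters with a peak in the control female, 99.2% also had one in the VEDS male. The near absence of promoters in the control female alone is therefore not particular to pairs. Of the pairs with a peak in the VEDS male library 92.1% (89.9 to 93.9) also had one in the control female, against 77.2% (76.3 to 78.1) of other promoters, a difference of 14.9 points (12.5 to 16.9). These libraries differ in genotype, sex and length of the list, and the parts of the 3 cannot be told apart. With the VEDS male list cut to its 21176 strongest peaks, the VEDS male alone held 30 pairs and the control female alone 10. At a −log10 q of at least 10 in both lists, the VEDS male alone held 159 and the control female alone 0. Other promoters were not counted in this way under these cuts. All 36 pairs of each shorter list had a peak in both longer lists. The shorter lists shared 14 pairs, which is 38.9% of each, and 58 pairs were in either.

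Peaks at pairs were stronger and wider than those at other promoters of the same library. Ranked by −log10 q among all peaks of the list, the best peak at a pair had a median rank in the top 17.8% of the control female list, against 27.6% for other promoters with a peak. Its medians in the VEDS male list were 10.2% and 18.9%. The median peak held 23 fragments at its summit and spanned 359 bp at pairs, against 19 fragments and 299 bp at other promoters, in the control female library. In the VEDS male library it held 55 fragments and spanned 549.5 bp, against 42 fragments and 442 bp. In the strongest 10% of the list were 33.9% of the peaks at pairs against 21.1% of those at other promoters in the control female library, and 49.3% against 30.9% in the VEDS male. Coding genes with a divergent noncoding gene lay in between, with median ranks of 23.4% (control female) and 13.7% (VEDS male). Their peaks had median widths of 311 and 483 bp, and 27.6% and 40% were in the strongest 10%. These are descriptions of single libraries, without a test and without weighting for CpG content.

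The order of strength was alike in the 2 longer lists. Over the 632 pairs with a peak in both, the rank in the control female and VEDS male lists had a Spearman rho of 0.85, given as a description because the pairs share their libraries and base composition. The 54 pairs with a peak in the VEDS male list alone had a median rank in the top 46.2% and 23 fragments, against 9.22% and 58 fragments for the 632 pairs in both. The 58 pairs that were also in a shorter list had median ranks of 6.80% and 4.08%, respectively.

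**Figure D3:**
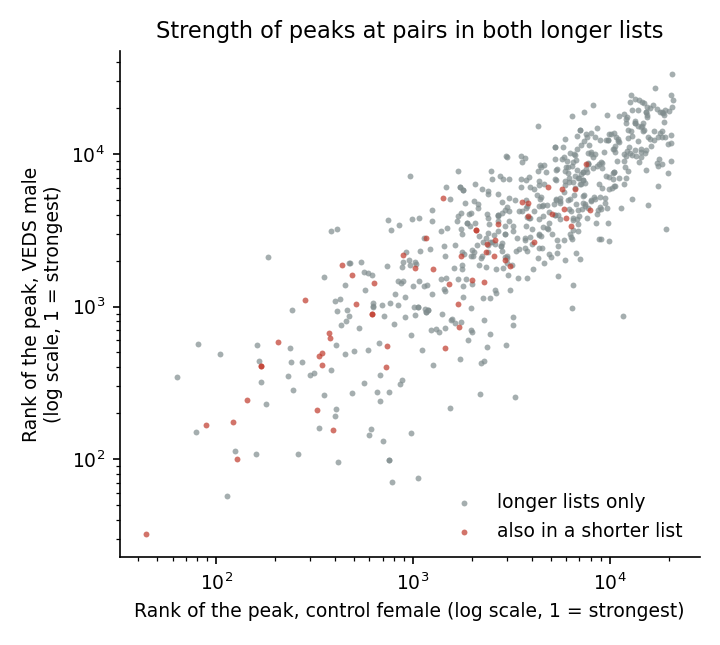
Rank of the best peak at each of the 632 pairs with a peak in both longer lists, in the control female (x axis) and the VEDS male library (y axis), on log scales with 1 as the strongest peak of the list; points are pairs, in red those also in a shorter list. The points rise together (Spearman rho 0.85), from *Hjurp/Trpm8* at ranks 44 and 32 in the lower left corner.

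*Hjurp*, a chaperone of the centromeric histone, and *Trpm8*, a cold-sensing ion channel, start 28 bp apart on chromosome 1. Their shared peak ranked 44 in the control female list (101 fragments, 341 bp wide) and 32 in the VEDS male list (284 fragments, 660 bp). In the control male list it held 12 fragments at rank 425, and the VEDS female list had no peak there. Thus the top pair of both longer lists was present in 3 of the 4.

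The other pairs among the 5 strongest in the control female list were *Gm28635/Med19*, with a subunit of Mediator, *Cdca2/Kctd9*, *Xab2/Pet100*, with factors of splicing and of cytochrome c oxidase assembly, and *Prr11/Ska2*, both linked to mitosis. Their ranks were 63, 79, 81 and 89, and 344, 150, 570 and 168 in the VEDS male list. The other pairs among the 5 strongest in the VEDS male list were *Zfp654/Cggbp1* at rank 57, *Nop14/Grk4* at 71, *Exosc1/Zdhhc16* at 75 and *Hs2st1/Selenof* at 96. *Nop14*, of ribosome assembly, and *Exosc1*, of the RNA exosome, start beside a kinase of G protein-coupled receptors and a palmitoyltransferase. In the control female list these 4 ranked 113, 782, 1059 and 416. Each list therefore had its own order within the top, although all of these pairs were in both.

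Of the 14 pairs with a peak in all 4 lists, *Srgap2/Fam72a* had the lowest summed rank, with 58 fragments (control female), 140 (VEDS male), 16 (control male) and 11 (VEDS female). *Prr11/Ska2* had 56, 115, 9 and 13 fragments in the same order. *Ccdc151/Prkcsh*, with a docking factor of ciliary dynein and a glucosidase subunit, had 52, 115, 8 and 9. *Aldh6a1/Lin52*, *Styxl1/Mdh2*, *Fbxo24/Lrch4*, *Fbxo24/Gm20605*, *Rnf5/Agpat1*, *L3hypdh/Jkamp* and *Rpa1/Smyd4* followed, of which both *Fbxo24* pairs had the same peak. In the shorter lists these 10 pairs had 7 to 16 and 6 to 13 fragments, so that each rests on few fragments there. *Mdh2*, the mitochondrial malate dehydrogenase, and *Rpa1*, which binds single-stranded DNA, are housekeeping genes.

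A single peak usually covered both gene starts. It did so at 491 of the 632 pairs with a peak in the control female library (77.7%, 74.3 to 80.8) and at 600 of 686 in the VEDS male (87.5%, 84.8 to 89.7). The share fell with the length of the interval. For intervals up to 100 bp it was 92.2% (88.2 to 94.9) and 97.9% (95.6 to 99.1), for 201 to 300 bp 66.7% and 84.9%, and for 501 to 1000 bp 15.1% (7.85 to 27.1) and 30.9% (20.3 to 44.0). More than 1 peak was found at 9 and 11 pairs, of which 7 and 9 were in the longest class. The shortest and the longest pairs show both ends of this range. *Slc7a6os/Prmt7*, 1 bp apart, had 1 peak of 406 bp over both starts in the control female and of 519 bp in the VEDS male library. At *Btf3l4/Txndc12*, 987 bp apart, the best peak spanned 149 and 275 bp with its summit 408 bp from the middle in both, on the side of *Btf3l4*. Peaks at other promoters had median widths of 299 and 442 bp, which exceed the median interval of 128 bp. In intervals of 501 to 1000 bp the best peaks had median widths of 315 and 584 bp. How often a peak at another promoter covers a stretch of like length was not counted. These shares therefore do not show a trait particular to pairs.

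Of the 632 pairs in both longer lists, 488 had 1 peak over both starts in both, 72 in the VEDS male alone, 3 in the control female alone and 69 in neither. The best peak was wider in the VEDS male library at 587 of the 632, with medians of 562 and 359 bp. The VEDS male library also had more fragments per peak, and the part of depth in this difference was not tested.

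The summit of the peak lay between the gene starts at 389 of 632 pairs (61.6%, 57.7 to 65.3) in the control female and at 436 of 686 (63.6%, 59.9 to 67.1) in the VEDS male library. The interval itself made up 32.1% and 31.5% of the windows at these pairs. At other promoters with a peak, 69.5% (68.4 to 70.6) and 69.1% (68.1 to 70.1) of summits lay upstream of the gene start, so that such a position is not particular to pairs. At pairs the median distance from the summit to the middle of the interval was 48.5 bp and 44 bp. In intervals over 500 bp it was 291 and 311 bp. Of the summits between the starts of intervals over 200 bp, 33.1% (26.3 to 40.7) and 29.0% (22.7 to 36.2) lay in the central of 3 equal parts. The summit was in the minus-strand gene at 136 and in the plus-strand gene at 107 pairs in the control female library, and at 139 and 111 in the VEDS male. Distances to the nearer start had medians of 43 and 37.5 bp at pairs, against 68 and 66 bp to the start at other promoters, which have a single start to be near. At the 632 pairs in both lists, the summits were a median of 33 bp apart, and 67.7% were within 50 bp of each other.

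**Figure D4:**
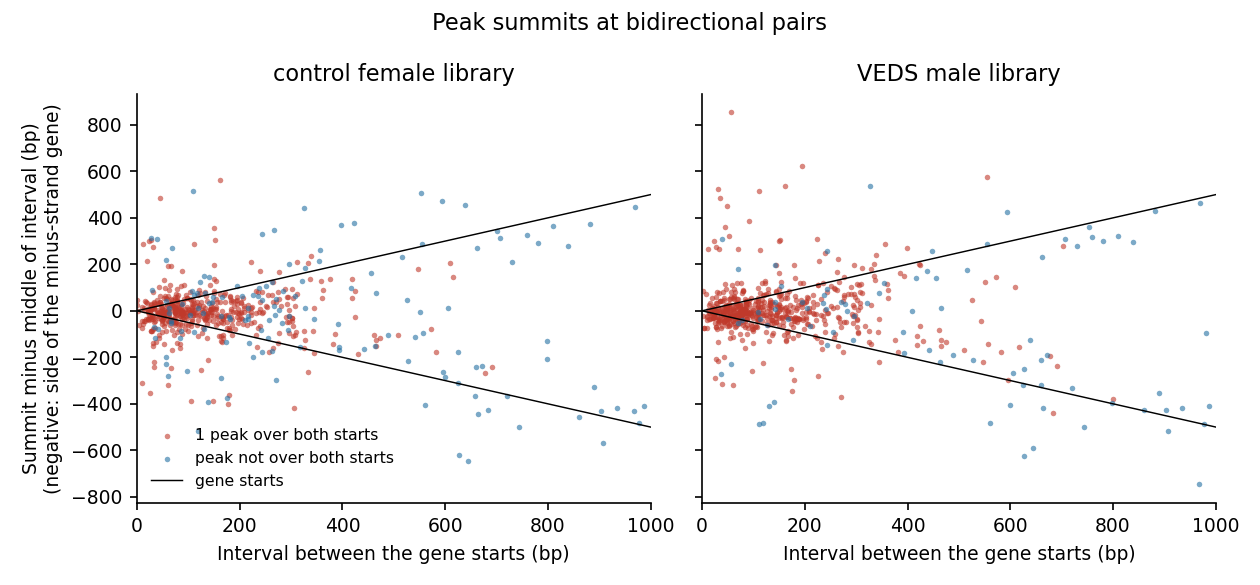
Position of the summit of the best peak relative to the middle of the interval (bp, y axis, negative toward the minus-strand gene) against the interval between the gene starts (bp, x axis) in the control female (left, 632 pairs) and VEDS male (right, 686 pairs) libraries; lines mark the gene starts, in red pairs with 1 peak over both starts. Short intervals have summits near the middle under 1 peak, and beyond 500 bp the points spread farther from the middle and the share under 1 peak is 15.1% and 30.9%.

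Sequence at the pairs was compared in 300-bp windows centred on the interval, with 9 short motifs searched on both strands. No motif contains another, although matches can overlap. ETS letters (CCGGAAG) were present at 208 of 734 pairs (28.3%, 25.2 to 31.7), against 10.2% of other promoters and 10.9% of all promoters. With the other promoters weighted to the CpG bins of the pairs, the share was 17.1%. ETS or NRF1 letters (GCGCATGCG) were present at 32.3% of pairs and 11.9% of other promoters. YY1 letters (ATGGCGG) were at 12.8% (10.6 to 15.4) of pairs and 5.14% of other promoters, or 8.81% after weighting and 5.42% of all promoters. A window at a pair can hold both gene starts, whereas a window at another promoter is set on a single gene start. The weighting does not account for this, and its part in the shares of ETS, YY1 and the other motifs was not tested.

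Among the remaining motifs, CCAAT and TATAAA also differed from the other promoters after weighting, and the others did not beyond counting error. CCAAT, the letters of NF-Y, was at 44.3% (40.7 to 47.9) of pairs against 37.2% of other promoters, 37.5% of all promoters and 35.3% after weighting. The GC box (GGGCGG) of SP/KLF factors was at 67.8% (64.4 to 71.1) against 43.1%, with 44.0% of all promoters, but 68.5% after weighting. NRF1 letters alone were at 4.77% (3.45 to 6.56) against 2.01%, or 3.91% after weighting, and CRE letters (TGACGTCA) at 4.50% against 2.23%, or 3.79%. E-box letters (CACGTG) were at 10.9% against 7.48%, or 10.7% after weighting. TATAAA was less frequent, at 4.50% (3.22 to 6.25) of pairs against 12.4% of other promoters and 6.73% after weighting, and AP-1 letters (TGANTCA) were at 3.41% (2.32 to 4.98) against 6.90%, or 3.78%. Shares over all promoters were 2.11% for NRF1, 2.31% for CRE, 7.61% for the E-box, 12.1% for TATAAA and 6.77% for AP-1. None of the ETS, NRF1, NF-Y, SP/KLF, YY1 and CRE letters was found at 80 pairs (10.9%).

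The motifs also differed in where they lay. The interval between the starts held 49.6% of the bases in these windows. Of 589 CCAAT matches 469 (79.6%, 76.2 to 82.7) were between the starts, and of 1047 GGGCGG matches 640 (61.1%, 58.1 to 64.0). Of 95 YY1 matches only 12 (12.6%, 7.38 to 20.8) were between the starts, the others being at or inside a gene, and of 266 ETS matches 112 (42.1%, 36.3 to 48.1). The sequence of *Xab2/Pet100* above holds 3 CCAAT, 2 ETS, 1 GC box and 1 CRE match between the starts. That of *Cct5/Fam173b* holds overlapping NRF1 matches next to the start of *Cct5*, a subunit of the chaperonin. A match describes letters and does not show that the factor binds.

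**Figure D5:**
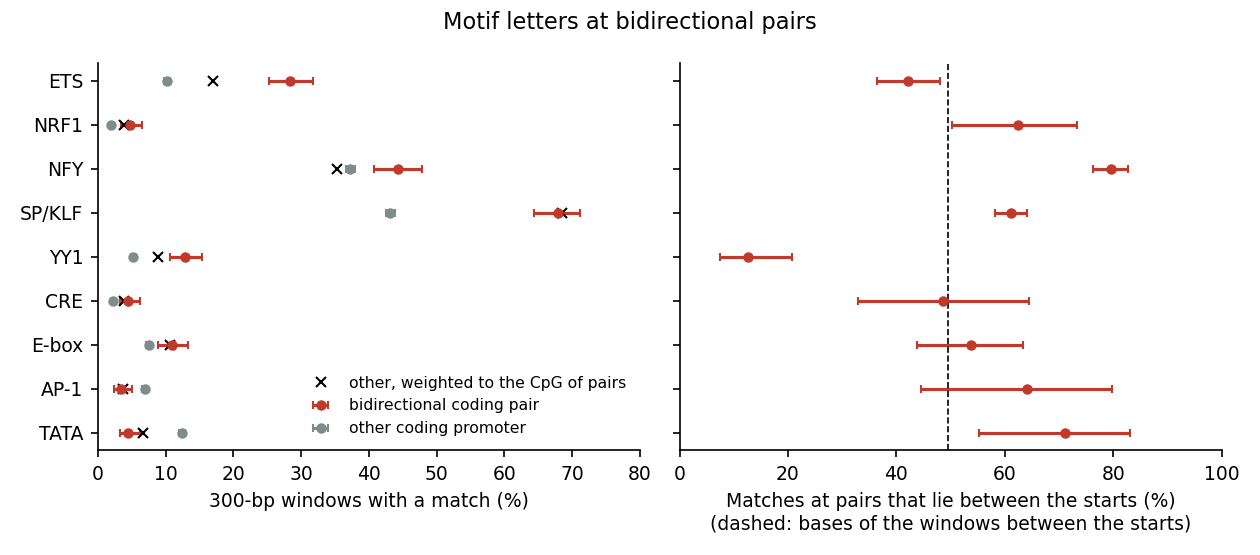
Left, share of 300-bp windows with each motif (%, x axis) at bidirectional coding pairs and other coding promoters, with 95% Wilson intervals, and as crosses the other promoters weighted to the CpG bins of the pairs. Right, share of the matches at pairs that lie between the gene starts (%), with the dashed line at the 49.6% of bases that do. CCAAT matches lie mostly between the starts (79.6%) and YY1 matches mostly outside (12.6%).

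Motif shares were also compared between pairs with and without a peak. In the VEDS male library ETS letters were at 29.9% of the 686 pairs with a peak and at 3 of the 48 without (6.25%, 2.15 to 16.8), and GGGCGG at 70.6% and at 14 of 48 (29.2%, 18.2 to 43.2). ETS letters did not differ beyond counting error in the control female library, at 29.3% (25.9 to 32.9) of the 632 pairs with a peak and 22.5% (15.5 to 31.6) of the 102 without, whereas GGGCGG was at 71.2% (67.6 to 74.6) and 47.1% (37.7 to 56.7). CCAAT was at 46.7% (42.8 to 50.6) and 29.4% (21.4 to 38.9) in the control female library, but at 44.8% and 37.5% (25.2 to 51.6) in the VEDS male, where the difference did not exceed counting error. CpG content moved with the presence of a peak as well, with a median ratio of 0.862 at the pairs with a peak and 0.327 at those without in the VEDS male library. The part of base composition in the motif shares was not tested.

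The genes of the pairs were grouped into 15 families by symbol, a pair counting for a family if either gene belonged to it. Histone genes were the family most often arranged in this way, with 27 of 67 genes (40.3%) in 14 pairs, mostly 1 H2A and 1 H2B gene. A peak was present at 10 of the 14 in control females and at 12 in VEDS males, against 47.5% and 67.5% of 40 other histone promoters. *Hist1h2ac/Hist1h2bc* was the strongest in the control female list, with rank 1179 and 30 fragments there and rank 1393 and 73 fragments in the VEDS male list. It was followed by *Hist1h2an/Hist1h2bp* (2385), *Hist1h2ag/Hist1h2bj* (2988) and *Hist2h2ac/Hist2h2be* (6005). *Hist1h2ah/Hist1h2bk* and *Hist1h2bl/Hist1h2ai* had a peak in the VEDS male list alone, and *Hist1h2ba/Hist1h2aa*, a testis-expressed pair, and *Hist1h2bf/Hist1h2ad* had none. Histone copies are near-identical, so that reads may be split or lost among them.

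The histone pairs stood apart in sequence. All 14 had CCAAT between the starts, with 2 to 5 matches each, as printed above for *Hist1h2ac/Hist1h2bc* with 3. A TATAAA match was in the window of 10 of the 14, against 4.50% of all pairs, and ETS letters in 0. The median CpG ratio was 0.617 and the median interval 259.5 bp, against 0.852 and 128 bp over all pairs. These counts describe a gene cluster of related copies, which are not independent.

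Mitochondrial genes formed 2 further groups. Of the genes of the mitochondrial ribosome 18 of 78 (23.1%) were in a pair, and of the respiratory chain and its assembly factors 23 of 104 (22.1%). All 18 and all 23 of these pairs had a peak in the VEDS male library, and 16 and 21 in the control female. The other promoters of the 2 families had a peak in 88.3% and 79.0% in the VEDS male and in 65% and 66.7% in the control female. *Mrpl32/Psma2*, which joins a subunit of the mitochondrial ribosome to one of the proteasome, ranked 738 and 548 and also had a peak of 6 fragments in the control male list. *Ncapd2/Mrpl51*, *Mrpl37/Cyb5rl* and *Mrps12/Sars2* ranked 891, 1024 and 1165 in the control female list. In the respiratory chain, *Wdr4/Ndufv3*, *Atp5h/Kctd2*, *Tepsin/Ndufaf8* and *Atp5c1/Kin* led with ranks 567, 951, 979 and 1387. *Eme2/Mrps34*, *Ska3/Mrpl57*, *Esf1/Ndufaf5* and *Ndufa5/Asb15* had a peak in the VEDS male list alone.

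The families of gene expression and protein quality control had a peak at nearly every pair, next to 86.1% (control female) and 93.5% (VEDS male) over all pairs. All 24 pairs with a subunit of RNA polymerase, the general transcription factors or Mediator had a peak in both longer lists, as did all 7 proteasome pairs and all 5 pairs of tRNA synthetases. The other promoters of these families had a peak in 80.3%, 73.8% and 89.7% in the control female and in 92.1%, 83.3% and 93.1% in the VEDS male library. *Gm28635/Med19* (rank 63), *Med29/Paf1* (531), *Gtf2e1/Rabl3* (679) and *Gtf3c1/D430042O09Rik* (1234) were the strongest of the first in the control female list. In the proteasome *Psme2/Rnf31* (837) and *Psmb1/Tbp* (6879), the latter shared with the TATA-binding protein, followed *Mrpl32/Psma2*. *S100pbp/Yars* (659) was the strongest pair of the tRNA synthetases. Of 12 chaperone pairs 11 had a peak in both, against 64.3% and 71.4% of other chaperone promoters, led by *Hspa14/Cdnf* (759), *Tbccd1/Dnajb11* (763), *Tsacc/Cct3* (1442) and *Hsp90b1/Ttc41* (1455), and *Sirt1/Dnajc12*, 739 bp apart, had none.

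Genes of DNA repair and replication were in pairs at 24 of 92 (26.1%). Of their 22 pairs 19 had a peak in control females and 21 in VEDS males, against 70.6% and 83.8% of the other promoters of the family. *Xrcc3/Zfyve21* ranked 504 and 512, and *Zfyve26/Rad51b* 1040 and 1892. *Atm*, the kinase that signals double-strand breaks, and *Npat*, an activator of histone genes, start 307 bp apart and shared 1 peak over both starts, with 38 fragments at rank 683 and 103 at rank 240. *Mcm4*, of the replicative helicase, and *Prkdc*, of end joining, start 466 bp apart and had 30 fragments at rank 1459 and 86 at rank 726. *Brca1/Nbr1* had 18 fragments at rank 11653 in the control female and 96 at rank 865 in the VEDS male library, where the summit lay 624 bp from the middle toward *Nbr1*. *Lig4/Abhd13* and *Rad51c/Tex14* had a peak in the VEDS male list alone and *Pinlyp/Xrcc1* in neither.

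The largest family was that of cilium and centrosome genes, which here includes all genes named Ccdc after their coiled coils. Of its 37 pairs 36 had a peak in control females and all 37 in VEDS males. Its other 174 promoters had one in 52.9% and 66.7%. *Ccdc151/Prkcsh* ranked 121 and 174, *Tmtc3/Cep290*, with a protein of the ciliary transition zone, 407 and 563, *Ccdc47/Ddx42* 489 and 1621, and *Mbd4/Ift122*, with a protein of intraflagellar transport, 565 and 1675. *Cep44/Fbxo8* had a peak in the VEDS male list alone, at rank 33941. Membrane traffic genes had 14 pairs, with a peak at 11 (78.6%) and 13 (92.9%), against 74.5% and 86.3% of the other promoters of the family, led by *Trappc11/Rwdd4a* (259 and 108) and *Galns/Trappc2l* (402 and 190). *Bloc1s3/Trappc6a* and *Cntrob/Trappc1* followed at 962 and 2828 in the control female list, and *Best1/Rab3il1* had no peak. *Pde6d/Cops7b* is among these 14 pairs by its symbol only. Zinc finger genes had 19 pairs, with a peak at 16 and 17, against 59.4% and 73.6% of the family's other promoters, led by *Zfp654/Cggbp1* (113 and 57), *Zfp142/Bcs1l* (246 and 284), *Zfp277/Dock4* (591 and 515) and *Zfp672/Sh3bp5l* (1423 and 5125), and *Grik5/Zfp574* and *Zfp558/Mbd3l1* had none.

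Few vessel wall genes were in such pairs. Of 210 genes of collagens, elastic fibers, their enzymes, integrins, TGF-β signaling and smooth muscle contraction, 8 (3.81%) were in 7 pairs. Over all coding genes the share was 6.96%, and whether these shares differ beyond counting error was not tested. A peak was present at 4 of the 7 in the control female and at all 7 in the VEDS male library, against 31.2% and 55.0% of 202 other promoters of the family. *Col3a1* itself is not a member.

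*Col4a4* and *Col4a3*, which encode chains of type IV collagen of basement membranes, start 72 bp apart and had a weak peak in the VEDS male library only, with 9 fragments, a width of 208 bp and rank 37190 of 41444. The interval printed above holds none of the 9 motifs, and neither does the 300-bp window. *Rfxank/Mef2b*, with a MEF2 factor, was the strongest of the 7 in the control female list, at ranks 168 and 408. Its control female peak of 597 bp was also that of *Rfxank/Borcs8*, 345 bp apart. The summit was nearer to the middle of that pair (11 bp) than to that of *Rfxank/Mef2b* (−95 bp, toward *Rfxank*). *Rfxank/Mef2b* had 47, 98 and 10 fragments in the control female, VEDS male and VEDS female libraries. *Polk/Col4a3bp* ranked 731 and 404 with 36, 93 and 3 fragments in the same libraries. *Col4a3bp* encodes a ceramide transfer protein and belongs to the family by its symbol only.

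*Tgfbrap1/AI597479*, with a protein that associates with TGF-β receptors, had 15 and 35 fragments (ranks 7563 and 7964). *Dok1/Loxl3*, with a lysyl oxidase-like enzyme, start 702 bp apart and had 19 and 51 fragments (8223 and 8102). In the VEDS male list alone were *Mfap1a/Wdr76* (36 fragments, rank 8461) and *Fam114a2/Mfap3* (19 fragments, rank 21828). *Mfap1a* is known as a splicing factor in spite of its name. For these last 2 pairs and *Col4a4/Col4a3*, genotype, sex and the length of the list cannot be told apart.

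Pairs of immune, sensory and testis genes were few. Of 7 immune pairs 2 (28.6%) had a peak in control females and 4 (57.1%) in VEDS males, against 12.6% and 22.3% of other immune promoters, led by *H2-T22/Gm6034* (2835 and 4112) and *Cd3eap/Ppp1r13l* (14522 and 21961). *Cd3eap* encodes a subunit of RNA polymerase I and is in the family by its symbol only. *Plgrkt/Cd274* and *Il17rb/Chdh* were in the VEDS male list alone, at ranks 28771 and 38997, and *Ifit1bl2/Ifit1*, *Il11/Tmem190* and *Smyd1/Cd8b1* had no peak. Only 2 of 1650 genes of olfactory and other sensory receptors, keratins and defensins were in a pair, *Nt5c3/Vmn1r4* (890 and 1971) and *Tas1r1/Nol9* (VEDS male, 22449). Of 9 pairs with a testis-named gene 4 (44.4%) and 5 (55.6%) had a peak, against 19.1% and 27.7% of other testis-named promoters, led by *Chmp1a/Spata33* (3695 and 9455) and *Spata1/Gng5* (6789 and 10791), followed by *Spata17/Gpatch2* and *Odf3l1/Cspg4*. *Aspa/Spata22*, *Dgcr2/Tssk2*, *Nmur1/Tex44* and *Tssk3/Fam229a* had none.

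The 54 pairs with a peak in the VEDS male list alone included strong and weak peaks, from rank 1649 to 38997 and from 9 to 68 fragments. Of these, 30 ranked within the first 21176 of the VEDS male list. The strongest was *Ndufa5/Asb15*, with a subunit of complex I, at 68 fragments, 515 bp and rank 1649. Its summit lay 409 bp from the middle of the interval, inside *Ndufa5*, and the control female library had a peak of rank 768 that ended 56 bp outside the window. *Rad51c/Tex14* (40 fragments, rank 7581) was alike, with its summit 485 bp from the middle and a control female peak 120 bp outside the window. For both, the presence or absence of a peak therefore turned on where the window ended. In all, 9 of the 54 had a control female peak within 1000 bp of the window.

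At *Hepacam2/Vps50*, 84 bp apart, the VEDS male peak had 45 fragments at rank 3474, and the nearest control female peak was 296520 bp away. At *Esf1/Ndufaf5*, with an assembly factor of complex I, it had 41 fragments at rank 4187, with the nearest 103467 bp away. *Adprm/Sco1*, with a copper chaperone of cytochrome c oxidase, had 39 fragments at rank 6679, with the nearest 27106 bp away. These 3 peaks covered both gene starts, and no peak was called at them in the other 3 libraries.

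The 48 pairs without a peak in either longer list were poor in CpG, with 28 below a ratio of 0.5. Named after their values were seen, they include *Pecam1/Milr1* (0.164), with an endothelial adhesion molecule, *Rnf151/Rps2* (0.148), with a ribosomal protein, *Slc27a5/Trim28* (0.117), *Kirrel2/Nphs1* (0.238), of the kidney filter, and *Klc3/Ckm* (0.285), with muscle creatine kinase. Bases masked as repeats made up 92.3% of the 300-bp window of *Pecam1/Milr1*. At *Rnf151/Rps2* the nearest VEDS male peak was 1411 bp outside the window. The absence of a peak does not show that these promoters are closed. The interval of *Nmur1/Tex44* printed above, with a ratio of 0.104 in its window, holds none of the 9 motifs. A ratio of 0.75 or more was found at 10 of the 48, among them *Tsc2/Nthl1* (0.870), *Rfng/Gps1* (1.07), *Srrd/Hps4* (1.07) and *Smc1b/Ribc2* (1.11). *Tsc2*, a regulator of growth signaling, and *Nthl1*, a DNA glycosylase, start 50 bp apart, and the nearest VEDS male peak was 252 bp outside the window. In all, 9 of the 48 had a VEDS male peak within 1000 bp of the window, 13 had an interval over 500 bp and 9 had a predicted or clone-derived gene name.

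Pairs with a predicted or clone-derived gene name were also counted apart. A peak was present at 60 of 74 (81.1%, 70.7 to 88.4) for pairs with such a name and 572 of 660 (86.7%, 83.9 to 89.05) for the others in the control female library, and 65 of 74 (87.8%, 78.5 to 93.5) and 621 of 660 (94.1%, 92.0 to 95.6) in the VEDS male. The intervals overlap, which does not show that the shares are alike.

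Among 9 pairs known from the literature as bidirectional, only *Col4a4/Col4a3*, *Mcm4/Prkdc* and *Atm/Npat* are members. The other 6 have annotated 5′ ends that overlap, so that no interval lies between them. Of these, *Hspd1/Hspe1* (ranks 3527 and 5699), *Psmb9/Tap1* (4999 and 5433) and *Ppat/Paics* (2475 and 2878) had a peak in both longer lists. *Surf1/Surf2* (29423) and *Col4a1/Col4a2* (17696), the other divergent pair of type IV collagen genes, had one in the VEDS male list alone. With such overlapping pairs included there were 1170 pairs, of which 82.8% and 90.9% had a peak.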

How the data were processed

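ATAC-seq peaks of aortic nuclei from control and VEDS mice at P60 were used in 4 libraries, 1 for each sex and genotype. The authors prepared nuclei with a 10x single-cell ATAC kit, aligned reads to mm10 (GRCm38) and called narrow peaks with MACS2 after duplicate removal by barcode and correction of Tn5 cut sites. They excluded blacklisted regions. The aligner is not given in the sources used here. Each deposited peak has a score (10 times its −log10 q without decimals in 99.97% to 100% of peaks), a fold enrichment (ratio to the local background of its library), −log10 p and −log10 q values and a summit offset. These are the authors' values, used only to rank or describe peaks within a list.

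From these, pairs were built from GENCODE vM21 genes (at most 1000 bp between 5′ ends, 200 bp added on each side), and a peak counted with an overlap of 1 bp. Other promoters had windows from 200 bp downstream to 328 bp upstream of the gene start. Fragments at summits were the whole number that gives both the fold enrichment (pseudocount 1) and the −log10 p (Poisson). Shares have 95% Wilson and differences 95% Newcombe intervals. Finding pairs, overlaps, fragments and intervals were tested on simulated data. No test between genotypes was made, since each sex and genotype has 1 library. Named pairs were the 5 strongest of each longer list and of each found in 1 alone, the 10 of lowest summed rank in all 4 lists, 9 textbook pairs, every vessel wall pair, the 3 shortest and longest, and up to 4 examples per family with its pairs without a peak. Some items under this rule are not reported here. Members, families and motifs were chosen with earlier results of these data known. Python 3.11.15, numpy 2.4.6, scipy 1.17.1 and matplotlib 3.10.9 were used.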

Additional observations from a re-analysis of the deposited data

Results flagged for a closer look

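Between the sexes, the number of pairs with a peak differed between VEDS and control in opposite directions. In females the VEDS library had 36 pairs with a peak and the control library 632, a difference of −596. In males the VEDS library had 686 and the control library 36, a difference of 650. This difference between the sexes was not tested, since each sex and genotype has 1 library, and the lists move with it, at 504 and 21176 peaks in females and 41444 and 1236 in males. Over all protein-coding promoters, 1.07% (VEDS) and 36.8% (control) had a peak in females, and 46.6% and 0.99% in males. The opposite directions are therefore not particular to pairs.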

How the results depend on the processing

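Of 79 values under alternatives, 53 kept their direction and stayed within the reported interval, within 1.5 times the reported count or, for differences, above 0, and 26 moved. The difference between pairs and other promoters stayed above 0 in all 12 alternatives for each longer list, at 6.80 to 52.6 points for control females and 6.37 to 50.8 for VEDS males, where the lowest are the 504 strongest peaks of each list. The share of pairs with a peak in the control female library moved to 81.6% at a −log10 q of at least 5, 68.0% at 10, 8.45% with the 504 strongest peaks, 81.1% with the summit required in the window and 82.8% with overlapping 5′ ends included. In the VEDS male library it moved to 89.6% at a −log10 q of at least 10, 88.8% with the list cut to 21176 peaks, 8.04% with 504, 88.6% by summit and 90.9% with overlapping 5′ ends. Pairs in both longer lists moved to 36 with 504 peaks and 967 with overlapping 5′ ends. Pairs in the VEDS male alone moved to 159 at a −log10 q of at least 10, 30 with 21176 peaks, 23 with 504 and 97 with overlapping 5′ ends. Pairs in the control female alone moved to 10 with 21176 peaks, 26 with 504, 1 without flanks, 10 by summit and 2 with overlapping 5′ ends. The share under 1 peak over both starts moved to 82.4% at a −log10 q of at least 10 in the control female, and for intervals up to 500 bp to 83.4% (control female) and 92.4% (VEDS male). The cause of these moves was not tested. Leaving out each library in turn, the pairs with a peak in either control library ranged from 36 to 632 (without the control female and without the control male) and in either VEDS library from 36 to 686 (without the VEDS male and without the VEDS female), so that 1 library sets each count. No paired analysis was possible because the results come from no test across samples, with replicate numbers that stand for sex and 1 library for each sex and genotype. Peak lists hold no counts per region, so that a region below the threshold of a shallow list is not measured.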
